A study of Mus musculus with 45 samples.

Results

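The genes described here are 8 members of the p53 pathway and the cyclin-dependent kinase (CDK) inhibitors: Cdkn2a, Cdkn2b, Cdkn1a, Cdkn1b, Trp53, Mdm2, Ccng1 and Trp53inp1. They were chosen by name, with no threshold on their values, and all 8 were found among the 23575 rows of the gene table. Mouse neural progenitor cells (NPCs) were reprogrammed to induced pluripotent stem cells (iPSCs), and their RNA was read as long nanopore cDNA reads in 45 libraries. The progenitors were derived from O4G, an R1 embryonic stem cell line with an Oct4-GFP reporter, and carried stably transfected, doxycycline-inducible factors. In the OKMS system (labelled OKMS-Luciferase-AS) these were Oct4, Klf4, Myc and Sox2, and in the OKS system (OKS-Luciferase-AS) the same set lacked Myc, so that each system is 1 cell line. In OKMS against OKS, Myc and any other difference between the lines therefore cannot be told apart. The OKMS and OKS arms were kept in FBS-LIF medium with doxycycline (serum plus leukaemia inhibitory factor), and some cultures of each were moved on day 6 to 2i-LIF, a medium with LIF, CHIR-99021 and PD0325901. The 2i-LIF medium held no doxycycline, so that medium and factor supply cannot be told apart in comparisons of the 2 media. The controls were untreated progenitors of the OKMS, OKS and wild-type (WT) genotypes at day 0, WT progenitors that spent 2 days in FBS-LIF with doxycycline and carried no factor (the medium control), and the embryonic stem cell lines R1, R1-Clone3 and O4G in 2i-LIF.

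A set of 22 libraries was made by direct cDNA sequencing of poly(A)-enriched RNA on R9 flow cells: 2 of embryonic stem cells, 4 of progenitors, 1 of the medium control, 6 of OKMS and 6 of OKS (days 2, 4, 6, 10, 14 and 20), and in 2i-LIF 2 of OKMS (days 14 and 20) and 1 of OKS (day 20). The other 23 were made by PCR cDNA sequencing of total RNA on R10 flow cells: 7 of embryonic stem cells, 4 of progenitors, 2 of the medium control, 5 of OKMS (days 2, 4, 6, 10 and 18), 3 of OKS (days 2, 6 and 18) and 1 of each system in 2i-LIF at day 18. Each day of each system is 1 library, and nothing in the labels says that replicates came from separate cultures, so p-values measure only the spread between these libraries, which may be technical. R9 and R10 libraries differ in RNA selection and in amplification and were tested apart, except where stated. The labels do not say whether R9 and R10 libraries of the same group share RNA.

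The transcription factor p53, encoded by Trp53, is kept low by the ubiquitin ligase Mdm2, which is itself a p53 target gene. Cdkn2a encodes p16Ink4a and p19Arf from separate first exons and a shared second exon read in different frames: p16Ink4a inhibits CDK4 and CDK6, as does p15Ink4b from the neighbouring gene Cdkn2b, whereas p19Arf binds Mdm2 and relieves its action on p53. Cdkn1a (p21Cip1) is a p53 target and, with Cdkn1b (p27Kip1), belongs to the Cip/Kip family of inhibitors that act on cyclin-CDK complexes. Ccng1 (cyclin G1) and Trp53inp1 are further p53 targets. In fibroblasts p53, p21Cip1 and the products of the Cdkn2a locus are known as barriers to reprogramming.

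The split of Cdkn2a into its products rests on the first exon. In the GENCODE M21 annotation (GRCm38, reverse strand) the Ink4a first exon lies at chr4:89281986-89282192 and the Arf first exon at chr4:89294334-89294653, 12461 bases further from the shared exon 2 at chr4:89276645-89276985. The RefSeq promoter windows (GRCm38.p6, 250 bases before to 50 after each start, 5′ to 3′ on the gene's strand) are shown for both starts and for Cdkn2b. The levels of these 3 products are described below. Capitals in the windows mark the GC box GGGCGG, searched on both strands. The junctions give the last 30 bases of each first exon in lower case and the first 30 bases of exon 2 in capitals, taken from RefSeq and GENCODE transcripts.
Arf promoter, chr4:89294570-89294869, reverse strand: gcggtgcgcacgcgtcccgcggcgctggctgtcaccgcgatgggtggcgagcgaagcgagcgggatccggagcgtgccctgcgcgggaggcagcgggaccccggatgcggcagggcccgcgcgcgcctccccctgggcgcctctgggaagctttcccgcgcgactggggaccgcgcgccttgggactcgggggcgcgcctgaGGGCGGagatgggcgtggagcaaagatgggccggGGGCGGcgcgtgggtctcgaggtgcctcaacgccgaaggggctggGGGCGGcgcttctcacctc
Ink4a promoter, chr4:89282143-89282442, reverse strand: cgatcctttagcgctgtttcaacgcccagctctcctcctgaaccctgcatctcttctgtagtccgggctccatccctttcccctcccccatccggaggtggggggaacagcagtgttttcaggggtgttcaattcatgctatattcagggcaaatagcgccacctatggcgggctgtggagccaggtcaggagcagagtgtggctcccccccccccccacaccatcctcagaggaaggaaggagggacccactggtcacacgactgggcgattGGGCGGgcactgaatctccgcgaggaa
Cdkn2b promoter, chr4:89310983-89311282, reverse strand: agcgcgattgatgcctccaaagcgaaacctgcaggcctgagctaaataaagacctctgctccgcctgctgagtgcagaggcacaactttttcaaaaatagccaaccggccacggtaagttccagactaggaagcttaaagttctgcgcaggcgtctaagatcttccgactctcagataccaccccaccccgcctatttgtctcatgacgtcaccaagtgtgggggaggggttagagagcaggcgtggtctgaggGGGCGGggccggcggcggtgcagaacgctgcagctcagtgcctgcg
Ink4a junction, Cdkn2a-201: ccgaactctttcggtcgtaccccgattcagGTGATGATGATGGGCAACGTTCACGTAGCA
Arf junction, Cdkn2a-202: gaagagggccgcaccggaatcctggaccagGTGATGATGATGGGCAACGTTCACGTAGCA
The Arf window held 3 GC boxes and the Ink4a and Cdkn2b windows 1 each. Across all 32851 promoter windows of the same length, 35.7% held at least 1, and 6 of the 9 windows of the members did. Both junctions carry the same exon 2 letters, which are read from phase 0 after the Ink4a exon and from phase 2 after the Arf exon, giving coding lengths of 504 and 507 bases.

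Library depth ran from 447990 to 1390424 assigned reads in R9 (median 814717) and from 566599 to 4236442 in R10 (median 2342551). The members were read 4 to 2218 times per library. The labelled cell types carried their markers: the summed level of 8 pluripotency genes was 11150 to 13730 CPM (reads of a gene scaled to the library's reads) in R10 embryonic stem cells and 14.9 to 28.0 in R10 progenitors, where Tcl1 was at 0, and 8 neural progenitor genes summed to 5006 to 6575 CPM in progenitors and 4.93 to 43.7 in stem cells, where Hes5 and Olig2 were at 0. A set of 5 R10 libraries stood apart by their mitochondrial share: 0.124% in the 1 R1 stem cell library whose label has no n number, and 0.153% to 0.319% in both WT progenitor and both medium control libraries. The other R10 stem cell libraries were at 1.81% to 2.35%, and the OKMS and OKS progenitors at 1.08% and 1.12%.

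A gene was called when its adjusted p (limma on log2(CPM + 1), Benjamini-Hochberg over all genes tested) was below 0.05 and its log2 difference was at least 1 in size. In R10 embryonic stem cells against progenitors 3 of the 8 members were called, where 45.8% of all tested genes were. In R9 the count was 2 of 8, against 36% of all genes. WT progenitors moved to FBS-LIF with doxycycline had 3 of 8 called, against 26.8% of all genes. Along the R9 time course, with a term for the factor system, 3 of 8 were called, against 10.7%. There the F test covered all days together, and the largest difference from day 0 had to be at least 1. OKMS against OKS over the 6 R9 day pairs also gave 3 of 8, against 18%. With 8 members, these counts describe the members only, and they were not tested against the shares of all genes.

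No member was called in the remaining comparisons. The 2 factor systems at day 2 against the medium control in R10 gave 0 of 8 by limma, 0 by edgeR and 0 by DESeq2, with 3 at an unadjusted p below 0.05, and 0.74% of all genes were called. In 2i-LIF against FBS-LIF over 5 pairs the counts were 0 by limma, 1 by edgeR and 0 by DESeq2, with 2 at an unadjusted p below 0.05, against 12.3% of all genes. OKMS against OKS over the 3 R10 pairs gave 0 members by each tool and 3 at an unadjusted p below 0.05, and limma called 0% of all genes. The difference between R10 and R9 in the stem cell comparison gave 0 by each tool and 4 at an unadjusted p below 0.05, against 3.63% of all genes.

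Cdkn2a as a whole gene (chr4:89274471-89294653) did not pass the test between stem cells and progenitors, whereas 1 of its products did. Its level in embryonic stem cells was 51.9, 63.0 and 80.9 CPM (lowest, median, highest of 7) in R10, and in the 4 R10 progenitor libraries it was 57.1 (OKMS), 77.1 (OKS), 96.2 and 54.8 (both WT). The groups overlapped: the log2 difference was -0.14 (SE 0.166, adjusted p 0.481; 0.10 after median centring) in R10 and -0.41 (adjusted p 0.271) in R9.

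The transcript table resolved 33 Cdkn2a transcripts with values, 13 from the Ink4a first exon and 20 from the Arf first exon. Summed in TPM (the deposited transcript abundance, scaled to the library), Ink4a transcripts were at 51.4, 49.97, 92.6 and 42.5 in the R10 OKMS, OKS and WT progenitors, and at 3.13, 4.66 and 6.73 (lowest, median, highest) in the 7 R10 stem cell libraries. All 7 stem cell libraries lay below all 4 progenitor libraries. The mean was 4.76 ± 1.28 TPM (SD, n = 7) against 59.1 ± 22.7 (SD, n = 4), a log2(TPM + 1) difference of -3.35 with an exact two-sided permutation p of 0.0060606, the smallest that 7 against 4 libraries can give. Arf transcripts were at 98.1 ± 13.5 TPM (SD, n = 7) in stem cells and 108 ± 26.1 (SD, n = 4) in progenitors, which differed by less than their spread (difference -0.12, exact permutation p 0.473). Of these means, 49.1 TPM in stem cells and 62.9 in progenitors came from Arf transcripts that lack the shared exon 2. For Ink4a such transcripts gave 0.542 and 6.97 TPM. Both sums therefore stand for the first exon used, not for transcripts that hold the whole product. These start measures were chosen after their values had been seen.

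As a share of both products, Ink4a was 4.69% ± 1.43 (SD, n = 7) in R10 stem cells and 34.9% ± 5.12 (SD, n = 4) in R10 progenitors, a difference of -30.2 percentage points (exact permutation p 0.0060606). The R9 stem cell libraries were at 5.77% (O4G) and 2.06% (R1), and the R9 progenitors at 41.0% (OKMS), 55.8% (OKS), 32.7% and 33.9% (both WT). That difference was -36.9 points, and with 2 libraries against 4 the exact permutation p of 0.133 misses 0.05. Among single transcripts 16 of the 33 passed the filter in the R10 comparison and 8 were called, where 39.8% of all tested transcripts were. A total of 5 from the Ink4a exon were lower in stem cells, as were 16.4% of all transcripts, and 3 from the Arf exon were higher, as were 23.4%. How reads that stop short of a first exon were shared among transcripts, and whether strand was used, is not given in the sources used here, and an antisense RNA listed for Cdkn2b overlaps the Arf start.

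During reprogramming the products differed by factor system. For Ink4a, OKMS was already below OKS at day 0 in R9 progenitors, at 52.5 against 96.4 TPM, while the R10 progenitors were at 51.4 and 49.97. In R9 OKS libraries Ink4a transcripts were at 198, 199, 196, 206, 156 and 15.3 TPM on days 2, 4, 6, 10, 14 and 20. In OKMS they were at 50.8, 24.2, 102, 95.3 and 41.2 TPM on days 2 to 14 and listed at 0 on day 20. OKMS lay below OKS on all 6 days, by -2.99 to -0.94 on the log2(TPM + 1) scale on the 5 days with values above 0 in both, with an exact sign-flip permutation p of 0.03125, the smallest that 6 pairs can give.

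Arf transcripts showed the opposite order on 5 of 6 days. They were at 96.9, 209, 240, 254, 158 and 40.4 TPM in OKMS and at 109, 71.9, 95.7, 84.3, 89.8 and 20.1 in OKS. The difference was 1.01 ± 0.65 (SD, n = 6 pairs; exact sign-flip permutation p 0.0625), which does not pass 0.05. Transcripts from the Arf exon that lack exon 2 were higher in OKMS on all 6 days (exact sign-flip permutation p 0.03125). The difference was 0.77 to 2.38 on the log2(TPM + 1) scale on 5 days, and on day 10 they were listed at 0 in OKS and at 116 TPM in OKMS.

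Ink4a therefore made up 64.6%, 73.5%, 67.2%, 71.0%, 63.5% and 43.3% of the Cdkn2a products in R9 OKS on days 2, 4, 6, 10, 14 and 20. In OKMS it made up 34.4%, 10.4%, 29.8%, 27.3%, 20.7% and 0%. The OKMS shares were all below the OKS shares, by -43.4 ± 10.9 points (SD, n = 6 pairs, from -63.1 to -30.2; exact sign-flip permutation p 0.03125). With only the transcripts that match an annotated splice chain in full, the difference was -32.2 ± 17.3 points (exact sign-flip permutation p 0.03125). The 3 R10 pairs differed by -32.0, -43.4 and -30.0 points on days 2, 6 and 18. They come from the same cell lines and may share RNA with the R9 libraries, so they are no independent check. At day 0 the Ink4a share was 41.0% in OKMS and 55.8% in OKS progenitors in R9, and 37.3% and 28.6% in R10. Of 14 single Cdkn2a transcripts tested in OKMS against OKS, 1 was called, from the Ink4a exon (log2 -3.00, adjusted p 0.032), where 2.38% of all tested transcripts were, and none was without the filter on low values.

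Without any factor, the Ink4a share in the medium control was 67.0% and 70.9% in the 2 R10 libraries, above the 59.7% of OKS and the 27.7% of OKMS on day 2. In the R9 library it was 49.1%, between the 64.6% of OKS and the 34.4% of OKMS on day 2 and inside the range of the R9 progenitors. In 2i-LIF the Ink4a share was low in both systems: 2.78% and 0% in R9 OKMS on days 14 and 20, 0% in R9 OKS on day 20, 0% in R10 OKMS and 9.51% in R10 OKS on day 18. Whole-gene Cdkn2a was 57.4, 58.0, 48.9, 79.3 and 61.0 CPM in those libraries and 82.3, 19.7, 17.2, 54.9 and 30.7 in the paired FBS-LIF libraries. It was higher in 2i-LIF in 4 of 5 pairs, with a log2 difference of 0.79 and an adjusted p of 0.0609. Without the R9 OKMS pair of day 14 the difference was 1.11 (adjusted p 0.0165). Cell type markers moved in the same comparison: 6 of 8 pluripotency genes were higher in 2i-LIF, with sums of 10033 to 15979 CPM against 5721 to 15755 in the paired libraries. Lower in 2i-LIF were 4 of 5 epithelial genes (median log2 -3.21; sums of 127 to 257 CPM against 473 to 1240), 2 of 4 tested trophoblast, 2 of 3 neuronal, 2 of 4 reactive astrocyte, 1 of 5 mesenchymal and 1 of 4 neural progenitor genes, where 12.3% of all genes were called. Their part in the Cdkn2a and Cdkn2b values of 2i-LIF was not tested. Since 2i-LIF held no doxycycline, medium and factor supply cannot be told apart in these values.

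Along the R9 time course the whole gene was lowest on day 20. From 67.3 CPM in OKMS and 82.6 in OKS progenitors it reached 151 CPM in OKMS on day 6 and 118 in OKS on day 2, and was 19.7 and 17.2 CPM on day 20. Its largest difference from day 0 was that of day 20, -1.96 on the log2 scale (SE 0.375), and the F test over all 6 days gave an adjusted p of 0.00762. Those day 20 values rest on 16 and 24 reads, and without either day 20 library the call was lost (adjusted p 0.0671 and 0.0837). OKMS and OKS did not differ beyond the spread between days at the level of the whole gene (log2 0.19, higher in OKMS on 4 of 6 days, adjusted p 0.533). Cell type markers also moved along the R9 time course, by their largest difference from day 0. Higher were 7 of 8 pluripotency, 3 of 6 reactive astrocyte, 2 of 8 mesenchymal, 2 of 5 neuronal and 1 of 5 epithelial genes. Lower were 7 of 8 neural progenitor, 2 reactive astrocyte, 1 mesenchymal and 1 neuronal genes, where 10.7% of all genes were called. Their part in the members' time courses was not tested.

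Cdkn2b (chr4:89306299-89311039, reverse strand), which encodes the CDK4 and CDK6 inhibitor p15Ink4b, had its highest levels in the medium control and in early OKS cells. The 2 WT progenitor libraries in R10 had 12.7 and 13.2 CPM, and the 2 medium control libraries 26.6 and 64.6. It was higher in the medium control by 1.61 on the log2 scale (SE 0.455, adjusted p 0.0479), a call that was lost with any 1 library left out (0.99 without medium control replicate 3) and under 4 of the other settings. In R9 the 2 WT progenitor libraries had 24.1 and 15.5 CPM and the medium control 166 (log2 3.03, adjusted p 0.15).

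In R9 OKS cells on day 2 the level was close to that of the medium control, and it was lower on the later days. Cdkn2b was at 167, 86.8, 80.3, 51.3, 37.2 and 13.7 CPM in R9 OKS on days 2, 4, 6, 10, 14 and 20, and at 89.3, 18.8, 13.6, 25.3, 33.8 and 7.39 CPM in OKMS. OKMS was the lower on all 6 days, by a log2 difference of -1.24 (SE 0.294, adjusted p 0.00823; exact sign-flip permutation p 0.03125). Without the day 6 pair it was -0.996 (adjusted p 0.0379) and just under the fold asked for, and with no day block it was not called (adjusted p 0.181). In the R9 time course its largest difference from day 0 was 2.18 on day 2 (SE 0.547, adjusted p 0.0301 over all days), not called without either day 2 or either day 20 library. In the R10 pairs OKMS had 25.3, 8.83 and 17.8 CPM and OKS 55.6, 52.5 and 19.2 on days 2, 6 and 18, so that the systems were level by day 18.

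Embryonic stem cells had 5.98, 8.83 and 15.9 CPM of Cdkn2b (lowest, median, highest of 7) in R10, against 19.3, 25.7, 12.7 and 13.2 in the OKMS, OKS and WT progenitors. The difference was -0.72 (SE 0.273, adjusted p 0.0283), under the fold asked for. In 2i-LIF Cdkn2b was lower than in FBS-LIF in 5 of 5 pairs, by -1.03 on the log2 scale, with an adjusted p of 0.0779 by limma and a log2 difference of -1.13 with an adjusted p of 0.0375 by edgeR.

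Cdkn1a (p21Cip1, chr17:29090976-29100727) had higher values in untreated progenitors than in embryonic stem cells in both chemistries. In progenitors they were 691 (OKMS), 746 (OKS), 704 and 586 CPM (both WT) in R10, and the 7 R10 stem cell libraries had 305, 351 and 498 CPM (lowest, median, highest). No stem cell library reached the lowest progenitor library. The R10 difference was -0.90 (SE 0.134, adjusted p 2.28e-05), under the fold of 1, and in R9, with 266 and 157 CPM in stem cells against 586, 573, 558 and 431 in progenitors, it was -1.38 (SE 0.236, adjusted p 0.00404). Without the R9 stem cell library of R1 it was -0.9996 (adjusted p 0.0455), just under that fold.

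In the medium control Cdkn1a fell to 68.5 and 123 CPM in R10. The log2 difference from WT progenitors was -2.79 (SE 0.323, adjusted p 0.00407). In R9 the medium control had 209 CPM and the WT progenitors 558 and 431 (log2 -1.22, adjusted p 0.2). With either R10 WT progenitor library left out, adjusted p was 0.178 and 0.181, and without medium control replicate 2 it was 0.0618. Medium control libraries also had the lowest summed level of 12 proliferation genes, 78.1 and 84.6 CPM against 3064 to 3582 in R10 progenitors, with 12 of 12 lower, most of all Ube2c (log2 -6.93, adjusted p 0.000707) and Pclaf (-6.55, adjusted p 0.00153), and 6 reactive astrocyte genes summed to 8536 to 8750 CPM against 1195 to 1571, with 5 of 6 higher and none at 0. Of the neural progenitor genes 3 of 7 tested were lower and none higher (median log2 -0.57), where 26.8% of all genes were called. Called too were 1 of 5 mesenchymal and 1 of 3 neuronal genes, both higher, and 1 of 4 pluripotency genes, lower. The part of all these genes in the fall of Cdkn1a was not tested, and in bulk RNA fewer cells of a type and less RNA per cell cannot be told apart.

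In cells with factors, Cdkn1a at day 2 was at 288 CPM in R10 OKMS and 251.1 in R10 OKS (log2 difference from the medium control 1.54, adjusted p 0.127). Both libraries with factors had a mitochondrial share of 1.51% and 1.64% and both medium control libraries one of 0.319% and 0.165%, so that in R10 the factors and whatever sets these libraries apart cannot be told apart. In R9 the mitochondrial shares were 0.708% and 0.727% with factors and 0.688% in the medium control, where Cdkn1a was at 209 CPM. R9 OKMS libraries had 389.9, 524, 519.9, 741, 401 and 89.9 CPM on days 2, 4, 6, 10, 14 and 20, and OKS had 278, 216, 191, 183, 328 and 252. OKMS was the higher through day 14 and the lower on day 20, so that the mean difference of 0.67 did not pass the test (adjusted p 0.153; exact sign-flip permutation p 0.219). Without the day 20 pair it was 1.10 (adjusted p 0.00277). The R10 pairs did not show that late turn: on days 2, 6 and 18 OKMS had 288, 544 and 573 CPM and OKS 251.1, 278 and 247, with OKMS the higher in all 3.

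Cdkn1a was also split by the start of each deposited transcript, a measure chosen after its values had been seen. How reads that stop short of a start were shared among transcripts is not given in the sources used here. A set of 4 transcripts began within 200 bases of position 29090979 of chromosome 17 (the upstream start) and 25 at 29093769 (the main start). Their RefSeq promoter windows (GRCm38.p6) are shown because the share of the upstream start differed between cell types. In the first, capitals mark the paired p53 core CATGNNNNNNCATG, which reads the same on both strands, and in the second the GC box GGGCGG.
Cdkn1a upstream promoter, chr17:29090729-29091028, forward strand: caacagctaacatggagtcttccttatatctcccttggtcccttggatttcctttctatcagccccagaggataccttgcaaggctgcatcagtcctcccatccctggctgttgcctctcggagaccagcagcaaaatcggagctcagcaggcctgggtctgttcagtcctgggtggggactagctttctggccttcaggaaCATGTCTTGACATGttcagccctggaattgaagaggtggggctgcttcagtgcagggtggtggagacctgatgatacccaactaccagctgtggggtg
Cdkn1a main promoter, chr17:29093519-29093818, forward strand: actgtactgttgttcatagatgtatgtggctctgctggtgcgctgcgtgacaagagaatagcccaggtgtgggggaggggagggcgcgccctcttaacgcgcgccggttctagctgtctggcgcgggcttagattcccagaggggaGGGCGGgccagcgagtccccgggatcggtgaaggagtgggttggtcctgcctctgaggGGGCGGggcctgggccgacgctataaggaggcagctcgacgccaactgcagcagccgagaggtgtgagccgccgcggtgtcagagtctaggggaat
The p53 core pair, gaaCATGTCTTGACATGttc with 3 bases on each side, lay at chr17:29090931-29090944, at position -48 from the upstream start and 2825 bases before the main start. It was found in 234 of 32851 promoter windows (0.712%) and in 1 of the 9 windows of the members.

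The upstream start gave 13.7% (OKMS), 13.6% (OKS), 18.4% and 14.8% (both WT) of the Cdkn1a transcripts from these starts in R10 progenitors. In the 7 R10 stem cell libraries it gave 2.64%, 5.20% and 6.01% (lowest, median, highest). All stem cell libraries lay below all progenitor libraries, at 4.88% ± 1.12 (SD, n = 7) against 15.1% ± 2.243 (SD, n = 4), with an exact permutation p of 0.0060606. In TPM the upstream start was 26.1 in stem cells and 152 in progenitors, and the main start 506 and 856. The R9 libraries gave 3.496% and 3.802% in stem cells and 11.7% (OKMS), 14.9% (OKS), 13.5% and 12.1% (both WT) in progenitors, where the smallest exact permutation p is 0.133. Of the Cdkn1a transcripts outside these starts, 4 began far upstream and 10 elsewhere, and neither class entered the share. Those from far upstream were at 32.7 TPM in R10 stem cells and 31.1 in R10 progenitors, and at 1.55 and 20.6 in R9.

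**Figure D1:**
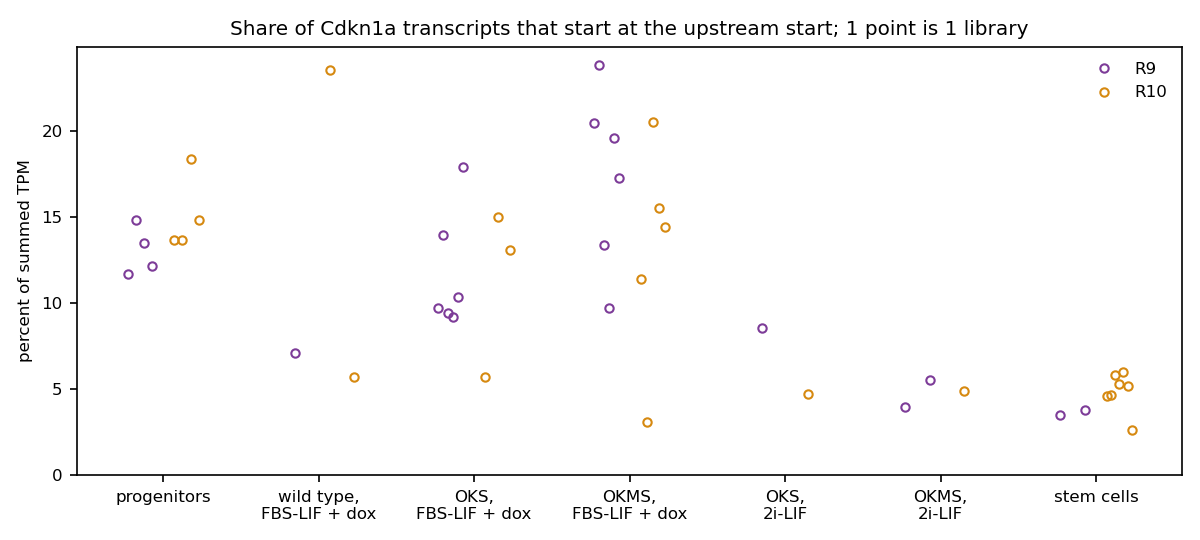
Share of the upstream start among Cdkn1a transcripts from the upstream and main starts, in percent, by group, with 1 point for each library. Stem cell libraries lie between 2.64% and 6.01% and progenitor libraries between 11.7% and 18.4%.

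In R9 OKMS the upstream share was 13.4%, 19.6%, 17.3%, 20.5%, 23.8% and 9.74% on days 2, 4, 6, 10, 14 and 20, and in OKS 9.40%, 10.4%, 17.9%, 9.72%, 14.0% and 9.18%. OKMS was higher on 5 of 6 days, by 5.61 ± 4.99 points (SD, n = 6 pairs; exact sign-flip permutation p 0.09375), which does not pass 0.05. In the R10 pairs of days 2, 6 and 18 it was 20.5%, 14.4% and 3.11% in OKMS and 15.0%, 13.1% and 5.69% in OKS, with OKMS the higher on days 2 and 6 and both systems within the stem cell range on day 18. The medium control gave 23.6% and 5.69% in its 2 R10 libraries and 7.12% in its R9 library, so that this share is not settled there.

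Cdkn1b (p27Kip1, chr6:134920401-134925513), the second Cip/Kip inhibitor here, was higher in OKS. In R9 OKS it was at 158, 222, 167, 152, 111 and 48.9 CPM on days 2, 4, 6, 10, 14 and 20, and in OKMS at 97.2, 75.1, 80.5, 107, 56.98 and 13.5 CPM. OKMS was the lower on all 6 days, by -1.09 (SE 0.196, adjusted p 0.00227; exact sign-flip permutation p 0.03125). Since the difference is near the fold asked for, median centring (-0.93), edgeR (-0.996), the R9 and R10 pairs in 1 fit (-0.93) and the loss of the day 4 or day 20 pair took it under that fold, and with no day block adjusted p was 0.146. In R10 OKMS had 44.3, 16.8 and 65.3 CPM and OKS 60.1, 70.0 and 44.8 on days 2, 6 and 18, so that the order was turned on day 18.

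Compared with day 0, Cdkn1b was higher in R9 from day 2 to day 10, by up to 1.32 on day 4 (SE 0.401, adjusted p 0.0143 over all days; 0.0739 without OKMS of day 20). The medium control reached 204 CPM in R9, against 65.5 and 62.9 in WT progenitors, and in R10 30.5 and 31.3 against 15.2 and 16.4 (log2 0.93, adjusted p 0.0524). In stem cells against progenitors it differed by 0.26 in R10 (adjusted p 0.489) and by -0.89 in R9 (adjusted p 0.00705). The interaction of the 2 was 1.15 (adjusted p 0.179). The R10 stem cell library without an n number had 8.22 CPM, against 26.3 to 38.4 in the other 6, and without it the interaction was 1.41 (adjusted p 0.00546).

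**Figure D2:**
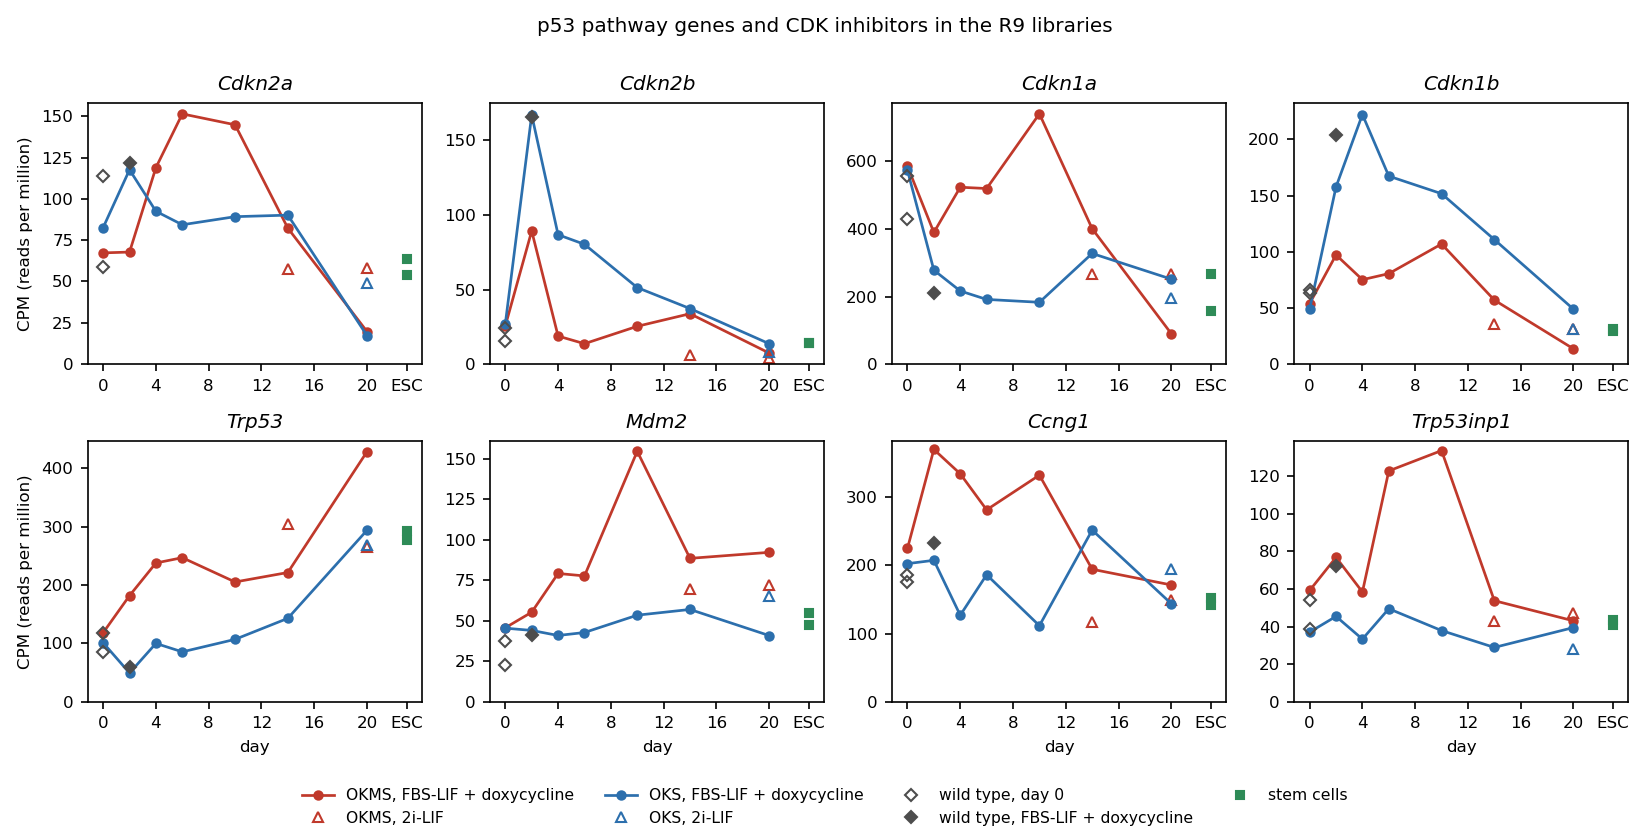
Level of each of the 8 genes in CPM by day of reprogramming, with 1 point for each library. The libraries shown include R9 OKMS and OKS in FBS-LIF with doxycycline. Cdkn2b and Cdkn1b lie higher in OKS and Trp53 higher in OKMS on each of the 6 R9 days.

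Trp53 itself (chr11:69580359-69591873) was higher in embryonic stem cells than in progenitors. R10 stem cell libraries had 297, 376 and 426 CPM (lowest, median, highest of 7) and progenitors 91.4 (OKMS), 100.5 (OKS), 110.5 and 112 (both WT). All stem cell libraries were above all progenitors, by a log2 difference of 1.85 (SE 0.113, adjusted p 1.14e-09), or 376 ± 40.5 CPM (SD, n = 7) against 104 ± 9.5 (SD, n = 4). In R9 the values were 293 and 277 against 118.5, 101, 85.6 and 117 (log2 1.44, SE 0.162, adjusted p 0.000727), and the R10 and R9 differences were not called apart.

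The medium control had 41.5 and 53.7 CPM of Trp53 in R10, under the 110.5 and 112 of WT progenitors (log2 -1.22, SE 0.23, adjusted p 0.0156, above 0.05 with any 1 library left out). In R9 it had 59.4 CPM (log2 -0.74, adjusted p 0.338). R9 OKMS then had 182, 238, 247, 205, 222 and 428 CPM on days 2, 4, 6, 10, 14 and 20, and OKS 49.5, 100.1, 85.7, 107, 143 and 294. OKMS was higher on all 6 days, by 1.12 (SE 0.191, adjusted p 0.00183; exact sign-flip permutation p 0.03125). Without the day 2 pair it was 0.97 (adjusted p 0.00529), and with no day block adjusted p was 0.0806.

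Both systems were highest in Trp53 on day 20 in R9. Its change from day 0 was 1.69 (SE 0.365), with an adjusted p over all days of 0.0526 by limma, 5.21e-06 by edgeR and 9.60e-06 by DESeq2. In R10 the order of the systems changed with time: OKMS had 165, 184 and 135 CPM and OKS 85.8, 90.4 and 446 on days 2, 6 and 18. On day 18 the OKS library was therefore the higher by 1.72 on the log2 scale, and with R9 and R10 pairs together the mean difference was 0.77 (adjusted p 0.0354). The summed pluripotency genes were 15755 CPM in that OKMS library and 5721 in that OKS library. In 2i-LIF Trp53 was 305, 265 and 269 CPM in R9, beside 293 and 277 in the R9 stem cells, and 317 and 368 in R10, inside the range of the R10 stem cells.

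The Trp53 promoter window (RefSeq, GRCm38.p6) is shown because the factor sets of OKMS and OKS differ by Myc, whose family binds the E-box CACGTG, in capitals.
Trp53 promoter, chr11:69580109-69580408, forward strand: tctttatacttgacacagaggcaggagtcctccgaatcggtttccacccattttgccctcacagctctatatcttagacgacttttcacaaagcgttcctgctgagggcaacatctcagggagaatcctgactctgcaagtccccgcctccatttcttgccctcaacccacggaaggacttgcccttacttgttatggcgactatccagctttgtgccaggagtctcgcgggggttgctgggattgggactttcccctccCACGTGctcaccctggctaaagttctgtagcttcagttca
That E-box began at position 11 after the start. It was found in 7.15% of all 32851 windows, and in 1 of the 9 windows of the members. A match is a description of the letters only, and the part of Myc in the Trp53 difference was not tested.

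Mdm2 (chr10:117688875-117710758, reverse strand), the ligase that marks p53 for degradation, followed the same direction as Trp53 in stem cells in R10. There it had 79.2, 98.8 and 120 CPM (lowest, median, highest of 7) against 45.3, 53.7, 38.7 and 44.5 in OKMS, OKS and WT progenitors, without overlap. The difference was 1.12 (SE 0.143, adjusted p 4.83e-06). The R10 stem cell library without an n number, taken alone against the progenitors, gave 0.79, under the fold asked for. In R9 Mdm2 was at 47.3 and 54.9 CPM against 45.8, 45.5, 22.7 and 37.8 (log2 0.47, adjusted p 0.271).

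The Mdm2 values were higher in OKMS than in OKS on each R9 day. They were at 55.4, 79.3, 77.8, 155, 88.6 and 92.3 CPM on days 2, 4, 6, 10, 14 and 20, against 44.1, 41.0, 42.8, 53.5, 57.1 and 41.0 in OKS. The difference of 0.90 (SE 0.193, adjusted p 0.00532; exact sign-flip permutation p 0.03125) was under the fold asked for. On the R10 days 2, 6 and 18 it was 64.0, 102 and 228.5 CPM in OKMS and 52.2, 61.0 and 94.8 in OKS. In both chemistries OKMS had its highest levels late, on day 10 in R9 and on days 10 (215.5 CPM) and 18 in R10.

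Ccng1 (cyclin G1, chr11:40748552-40755311, reverse strand) was called in none of the comparisons. Its level was 162, 219.6 and 250.9 CPM (lowest, median, highest of 7) in R10 stem cells and 196, 203, 139 and 127 in OKMS, OKS and WT progenitors. The difference was 0.37 (adjusted p 0.044) in R10 and, in the other direction, -0.42 (adjusted p 0.0422) in R9, with an interaction of 0.79 (adjusted p 0.072). In R9 OKMS it was at 369.5, 334, 281, 332, 194 and 171 CPM on days 2, 4, 6, 10, 14 and 20, and in OKS at 207, 127, 186, 112, 251.5 and 144. OKMS was higher on 5 of 6 days, by 0.71 (SE 0.228, adjusted p 0.0335; exact sign-flip permutation p 0.09375).

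Trp53inp1 (chr4:11156431-11174379), a p53 target that takes part in cell death and autophagy, was the third called gene in R10 stem cells. It had 39.2, 129 and 166 CPM there (lowest, median, highest of 7) and 68.5 (OKMS), 64.8 (OKS), 34.9 and 27.8 (both WT) in progenitors, a difference of 1.32 (SE 0.343, adjusted p 0.00296). The lowest stem cell library was the one without an n number, and taken alone against the progenitors it gave -0.21. That library and both WT progenitors are among the 5 with a mitochondrial share below 0.32%, and the part of whatever sets them apart was not tested. R9 showed no such difference: 43.6 and 41.0 CPM in stem cells against 59.2, 37.1, 38.8 and 54.2 in progenitors (log2 -0.13, adjusted p 0.681; 0.023 after median centring). The interaction was 1.46 (adjusted p 0.116; 1.71 and 0.00443 without the library that has no n number).

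During reprogramming the Trp53inp1 values were higher in OKMS on each R9 day. OKMS was also above OKS at day 0, at 59.2 against 37.1 CPM in the R9 progenitors. R9 OKMS had 76.8, 58.4, 123, 134, 53.8 and 43.1 CPM on days 2, 4, 6, 10, 14 and 20, and OKS 45.5, 33.4, 49.5, 37.9, 28.95 and 39.5. The difference was 0.94 (SE 0.221, adjusted p 0.00823; exact sign-flip permutation p 0.03125), under the fold of 1 by limma and 1.00 by edgeR (adjusted p 0.00718). In R10 OKMS had 41.1, 74.2 and 135 CPM and OKS 58.6, 50.3 and 69.1 on days 2, 6 and 18.

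**Figure D3:**
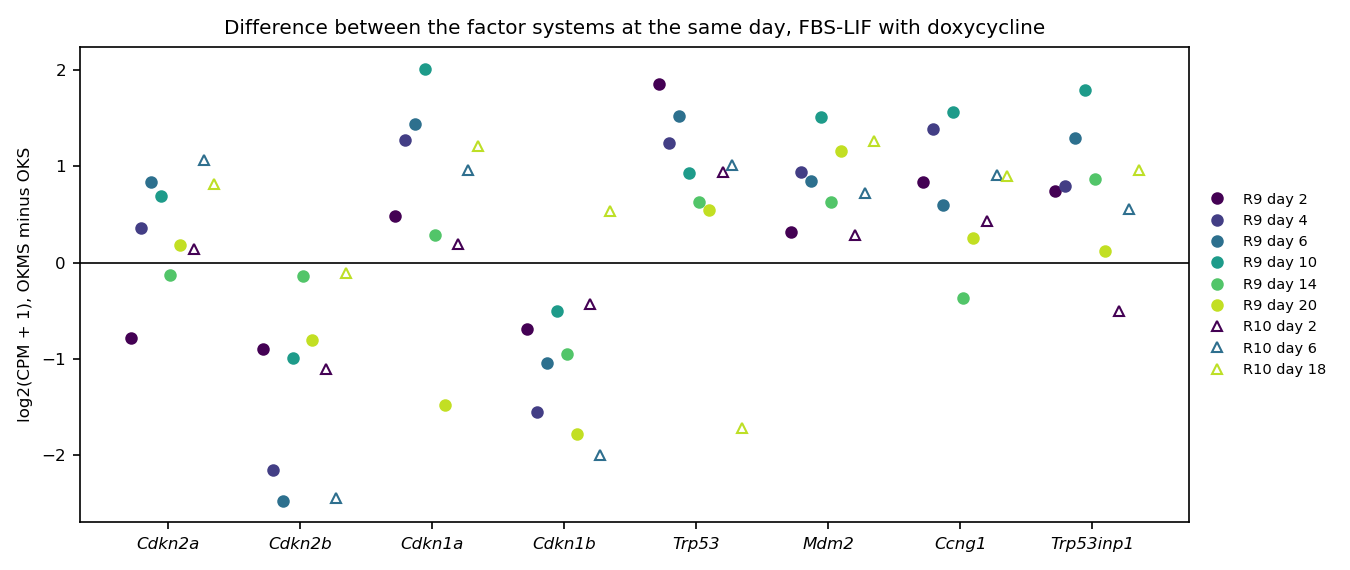
OKMS minus OKS on the log2(CPM + 1) scale for each of the 8 genes on each of the 6 R9 days and on R10 days 2, 6 and 18, with 1 point for each pair. Cdkn2b and Cdkn1b lie below 0 and Trp53, Mdm2 and Trp53inp1 above 0 on every R9 day. In R10 Cdkn1b lies above 0 and Trp53 below 0 on day 18, and Trp53inp1 lies below 0 on day 2.

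On each R9 day OKMS had less Cdkn2b and Cdkn1b and less of the Ink4a product than OKS, and more Trp53, Mdm2 and Trp53inp1. Change with time in this contrast, days 10 to 20 against days 2 to 6, was called for no member and for 0% of all genes by limma; 2 members, Cdkn2b (1.196, adjusted p 0.587) and Trp53 (-0.84, adjusted p 0.514), had an unadjusted p below 0.05. Proliferation genes moved with these values: 10 of 12 were higher in OKMS (median log2 1.398, against -0.11 for all genes), led by the mitotic genes Ccnb1 (2.01, adjusted p 0.00114) and Aurka (1.85, adjusted p 0.00189), and their summed level was 1745, 2850 and 3755 CPM (lowest, median, highest) in OKMS and 539, 665 and 3680 in OKS. The OKS libraries of days 14 and 20 were at 2142 and 3680 CPM. Reactive astrocyte genes were lower in OKMS, 6 of 6, with sums of 64.0 to 2105 CPM in OKMS and 246 to 4269 in OKS and none at 0, as were 3 of the 5 tested mesenchymal genes. Neural progenitor genes were also lower in OKMS, 4 of 7 tested (median log2 -1.51), with sums of 16.01 to 2735 CPM in OKMS and 52.5 to 5055 in OKS. The markers that were higher in OKMS were 4 of 5 epithelial genes (median log2 2.84), 3 of 4 tested trophoblast genes (2.81), 3 of 8 pluripotency genes (1.59) and 2 of 3 tested neuronal genes (1.14), where the other was lower. Their summed levels ranged from 12.4 to 1189 CPM in OKMS and 1.91 to 1240 in OKS for the epithelial genes, from 7.91 to 498 and 0.954 to 629.5 for the trophoblast genes, and from 68.9 to 9567 and 89.6 to 8241 for the pluripotency genes. In this comparison of OKMS with OKS in R9, 18% of all genes were called. The part of all these genes in these differences was not tested.

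**Figure D4:**
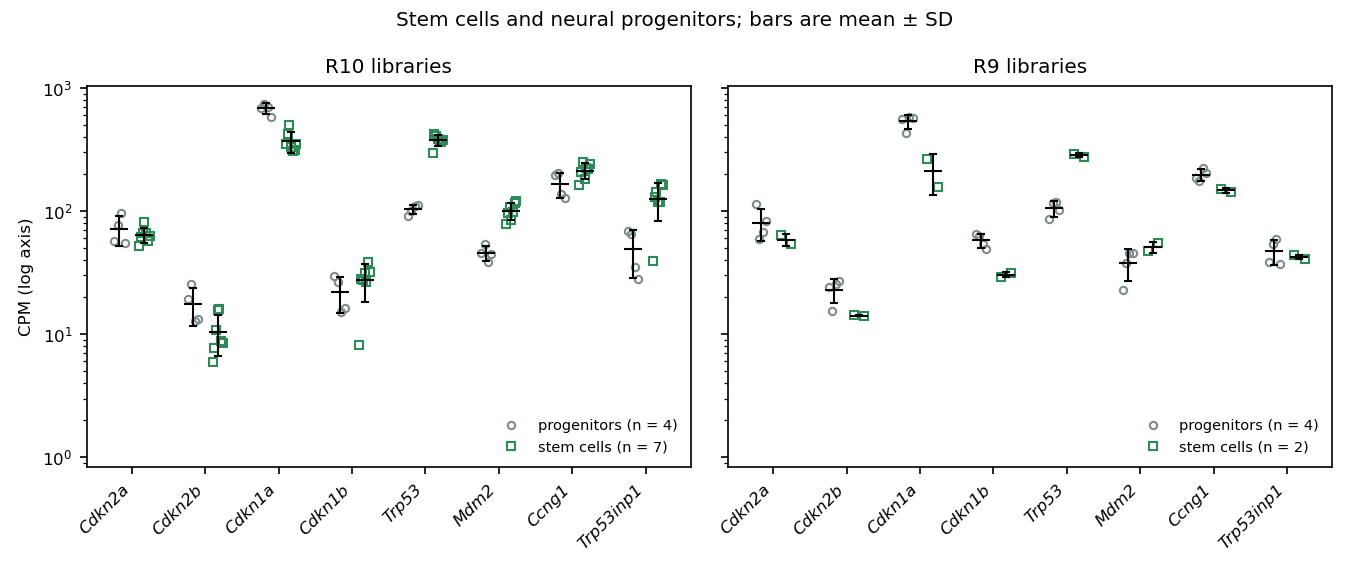
Level of each of the 8 genes in CPM in embryonic stem cells and progenitors, R9 and R10, on a log axis, with 1 point for each library. Trp53 is higher and Cdkn1a lower in every stem cell library than in every progenitor library of the same chemistry.

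Further genes of the pathway were counted from fixed lists. Over all genes, 18% were called in OKMS against OKS in R9, 45.8% in R10 stem cells against progenitors and 26.8% in the medium control, and a list's count near those shares is no result about that list. Of 30 p53 target genes outside the members, 9 were higher and 2 lower in R9 OKMS than in OKS, with a median log2 difference of 0.63 beside -0.11 for all genes. The higher ones included Perp, a tetraspan membrane protein (2.30, adjusted p 0.00268), Gdf15, a secreted stress factor (1.91, adjusted p 0.021), and Tigar, which limits glycolysis (1.38, adjusted p 0.00408), and the lower ones were Sesn1 (-1.61, adjusted p 0.00188) and the death receptor gene Fas (-1.16, adjusted p 0.00711). In R10 stem cells against progenitors the same list gave 6 higher and 7 lower (median 0.15, beside 0.01 for all genes), from Tigar (3.46, adjusted p 8.41e-11) to Trp53i11 (-5.14, adjusted p 2.13e-11). In the medium control 2 of 27 tested were higher and 8 lower, with the largest falls in Trp53i11 (-4.76, adjusted p 0.00259) and Gtse1 (-4.36, adjusted p 0.00219).

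Among regulators of p53, 6 of 17 tested were higher and 2 lower in R10 stem cells, a share close to that of all genes called. Trp73, which encodes the p53 relative p73, was at 7.17 ± 2.68 CPM (SD, n = 7) in stem cells and listed at 0 in all 4 progenitor libraries (adjusted p 5.68e-08). The checkpoint kinase genes Chek1 and Chek2 rose by 1.35 and 1.93 (adjusted p 6.08e-06 and 3.66e-07), and Usp7, a deubiquitinase of Mdm2 and p53, by 1.76 (adjusted p 7.08e-08), while Hipk2, a kinase of p53, fell by 2.38 on the log2 scale (adjusted p 2.74e-07). In OKMS against OKS 2 of 16 were higher and none lower: Chek1 (2.02, adjusted p 0.00261) and Chek2 (1.32, adjusted p 0.0155).

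Of 6 other CDK inhibitors and pocket proteins, 4 were lower and none higher in R10 stem cells, where 45.8% of all genes were called (median -1.49, beside 0.01 for all genes). Cdkn2c, the CDK4 and CDK6 inhibitor p18Ink4c, was at 1.19 CPM in stem cells and 21.9 in progenitors (log2 -3.42, adjusted p 8.56e-08), and Cdkn1c (p57Kip2) at 0.444 and 10.5 (log2 -3.00, adjusted p 7.39e-08). In OKMS against OKS 2 of 6 were lower: Cdkn2c at 22.2 against 101 CPM (log2 -2.48, adjusted p 0.000811) and the pocket protein gene Rbl2 (-1.17, adjusted p 0.018). Of 6 tested genes for turnover of CDK inhibitors, 3 were higher in OKMS, among them Skp2 (1.72, adjusted p 0.0107) and Cks1b (1.35, adjusted p 0.00188), which together direct p27Kip1 to degradation.

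Known regulators of the Cdkn2a locus went both ways. In R10 stem cells 4 of 13 tested were higher and 4 lower. Higher were the Polycomb genes Eed (2.10, adjusted p 3.17e-09), Suz12 (1.53, adjusted p 3.93e-06) and Cbx7 (4.22, adjusted p 4.65e-09) and the repressor Tbx3 (6.66, adjusted p 2.04e-12). Lower were the activator Ets1 (-5.22, adjusted p 5.77e-11), the demethylase gene Kdm6b (-2.53, adjusted p 2.21e-05), Id1 and a further Polycomb gene, Bmi1. In R9 Kdm6b differed by -0.27 (adjusted p 0.398), and its R10 and R9 differences were called apart (-2.26, adjusted p 0.0324). In OKMS against OKS 2 of 14 were higher, Ezh2 (1.32, adjusted p 0.00376) and Eed (1.27, adjusted p 0.00163), and 2 lower, Tbx2 (-1.30, adjusted p 0.0327) and Id1 (-1.25, adjusted p 0.0164). Senescence secretory genes were lower in OKMS in 4 of 10 tested, with Igfbp3 (-3.24, adjusted p 0.00039) and Timp2 (-2.24, adjusted p 0.001) leading, and none was higher.

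Which genes varied most like the members over libraries was asked of 11297 genes with a mean of at least 5 CPM, by the mean of Spearman's rho over the 22 R9 and over the 23 R10 libraries. Trp53 was followed by Nop58, a nucleolar protein gene, and the translation factor gene Eif2s1, both at 0.94. Cdkn2b was followed by Rtn2 (0.88) and Ifi27 (0.87), Cdkn1b by Sqstm1 and Rabac1 (both 0.81), and Cdkn1a by 2810025M15Rik (0.80) and Mki67 (0.75). Mdm2 came with Lgals3 (0.80) and Rhox6 (0.79), Cdkn2a with Tmem123 (0.72) and Nod1 (0.69), Ccng1 with the p53 target Eda2r (0.72) and Pdcd6ip (0.69), and Trp53inp1 with Zdhhc13 (0.71) and Trpm7 (0.70).

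Among the members themselves the same measure was 0.65 for Cdkn2b with Cdkn1b, 0.62 for Trp53 with Mdm2 and 0.61 for Ccng1 with Trp53inp1, and -0.74 for Cdkn2b with Trp53. These values describe libraries that share cell lines, days and depth.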

How the data were processed

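Gene values are CPM and transcript values TPM, both deposited by the authors as tables of the whole series. Per the submitters' processing notes, reads were aligned with minimap2 2.24-r1122 to mm10; the deposited tables' names give IsoQuant, whose settings are not given in the sources used here. Transcript positions and splice classes are as deposited with the series. The Ink4a and Arf classes were assigned here by overlap with the GENCODE M21 first exons. The Cdkn1a upstream and main classes were assigned by a start within 200 bases of the annotated start. A set of 13 gene table columns that match no sample here was not used. The gene table held 20 rows named as numbers, which were not taken out of the tests over all genes. Genes with at least 1 CPM in as many libraries as the smaller group or the number of pairs (2 in the time course) were tested with limma 3.58.1 (R 4.3.3) on log2(CPM + 1), all genes at once, a scale on which low genes show smaller changes. Every deposited CPM value came out as whole reads within 0.02, and edgeR 4.0.16 and DESeq2 1.42.0 were run on those reads as alternatives. Their counts of members are given for the comparisons in which limma called none. For the others they are in the closing section only where they changed by more than 1.5 times. Tests were tried on simulated data: of genes changed by a log2 of 1.5, 98% were recovered for stem cells against progenitors in R10 (15475 genes) and 88% for OKMS against OKS in R9 (15177 genes). The simulated counts had the same relative spread for all genes and no effect of day or batch. Changes were given only to genes above a minimum mean level. These shares therefore do not measure the power of the real comparisons. Transcripts were tested on log2(TPM + 1). Single start measures used exact permutations with scipy 1.17.1. The members and gene lists were chosen with earlier results of these data known. The text names all 8 members, the 2 genes whose levels correlate best with each, and, where a pathway list is described in a comparison, its 2 called genes with the largest changes; others of a list were named after their values were seen. TPM carries no depth, so no counting interval is given for shares. Promoter windows came from RefSeq (GRCm38.p6) for 7 of 8 members, the exons from GENCODE M21.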

Additional observations from a re-analysis of the deposited data

Results flagged for a closer look

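In groups of 4 to 10 libraries the highest or lowest value was compared with its nearest neighbour. Of 30 groups looked at, 3 held a value that stood apart, where chance alone gives about 1 in 20. Cdkn1b was at 8.22 CPM in the R10 R1 stem cell library without an n number, against 26.3 to 38.4 CPM in the other 6 stem cell libraries. Trp53inp1 was at 39.2 CPM in the same library, against 118.5 to 166 CPM in the others. That library also had the lowest mitochondrial share in R10, 0.124%, and the part of what sets it apart was not tested. The upstream start gave 2.64% of the Cdkn1a transcripts from the upstream and main starts in R1-Clone3 replicate 2 in R10, against 4.57% to 6.01% in the other 6.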

How the results depend on the processing

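Of 1240 values that single members took under other settings, 1125 kept their direction and side of the threshold, 41 lost it, 18 gained it and 56 changed sign, and none of those 56 signs belonged to a value called both ways. Counts of called members changed by more than 1.5 times in these cases. The medium control had 0 with the R9 libraries and 0 to 1 with 1 library left out, where the lone library is assumed to vary like the others. The R9 time course had 5 by edgeR, 1 with no term for the factor system and 0 to 4 with 1 library left out. OKMS against OKS in R9 had 0 with no day block and 1 with R9 and R10 pairs together. Medium 2i-LIF gave 1 by edgeR and 0 to 1 with 1 pair left out. The R9 stem cell comparison had 1 to 2, and its difference from R10 0 to 2, with 1 library left out, and the R1 stem cell library without an n number gave 1 when set alone against the progenitors. Cdkn2a transcripts had 3 called at a minimum of 5 TPM in stem cells, and 0 without a filter and 0 to 1 with 1 pair left out in OKMS against OKS. The Ink4a share differed by -32.2 points (OKMS against OKS) and -23.0 points (stem cells) over full-splice matches alone, and by -36.9 points in the R9 stem cells. The cause of these changes was not tested. The full-splice, left-out and R10 versions of the Ink4a share were chosen after seeing the data.

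Signs turned as follows. With median centring the differences were 0.10 for Cdkn2a in R10 stem cells, 0.023 for Trp53inp1 in R9 stem cells, -0.17 for Cdkn2a at day 2, -0.52 for Trp53inp1 in the time course and 0.12 for Trp53inp1 in late against early OKMS and OKS. Quantile normalization gave -0.093 for Cdkn2a at day 2 and 0.074 for Trp53inp1 late against early. By edgeR and DESeq2 Cdkn2a at day 2 was -0.10, and by DESeq2 Ccng1 was 0.33 in the time course and Trp53inp1 0.10 late against early. In R9 libraries the medium control gave 0.56 for Cdkn2a, 0.47 for Mdm2, 0.36 for Ccng1 and 0.64 for Trp53inp1, and day 2 gave -0.44 for Cdkn2a, -0.71 for Cdkn1b and -0.28 for Trp53inp1. In 2i-LIF Cdkn1a was -0.17 in R10 pairs and Trp53 -0.12 in R9 pairs. The R1 library without an n number gave -0.21 for Trp53inp1, -1.26 for Cdkn1b and -0.00083 for Ccng1 against the progenitors.

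With 1 library or pair left out, values that changed sign ranged as follows. Cdkn2a ran from -0.25 to 0.020 in R10 stem cells, -0.55 to 0.26 in the medium control, -0.040 to 0.10 at day 2 and -0.35 to 0.46 late against early. Cdkn2b ran from -0.21 to 0.11 in the R10 minus R9 stem cell difference and -0.77 to 0.48 at day 2. In the medium control Mdm2 ran from -0.37 to 0.013 and Trp53inp1 from -0.31 to 0.0090. The largest change along the time course ran from -1.88 to 2.76 for Cdkn2b, -1.57 to 1.93 for Cdkn1b and -0.72 to 0.65 for Ccng1, as another day became the largest. Late against early, Cdkn1a ran from -1.66 to 0.087, Cdkn1b from -0.27 to 0.37 and Trp53inp1 from -0.45 to 0.39. In the R10 pairs Cdkn1b ran from -1.21 to 0.050 and Trp53 from -0.39 to 0.98. In 2i-LIF Cdkn1a ran from -0.32 to 0.26, Trp53 from -0.16 to 0.32 and Mdm2 from -0.40 to 0.12.

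The medium control and WT progenitors in R10 share replicate numbers in 2 pairs. A fit with the replicate number as a block called 3 members, as without it. Same-numbered libraries deviated together (r = 0.474 over 14688 genes), which the labels do not explain. No other paired analysis by replicate number was possible because the other groups compared share fewer than 2 numbers given in their labels.

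Counts over all genes also moved: the R9 time course from 2078 to 4573 by edgeR and 318 with no system term, OKMS against OKS in R9 from 2567 to 2 with no day block, the R10 minus R9 stem cell difference from 666 to 88 by edgeR and 278 by DESeq2, day 2 from 114 to 399 with median centring, 29 with quantile normalization, 334 by edgeR and 464 by DESeq2, the R10 pairs from 0 to 349 by DESeq2, and transcripts of OKMS against OKS from 877 to 32 without a filter. Depth limits the low genes: Cdkn2b was read 4 times in 1 library, and days are single libraries.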
